A study of Mus musculus with 2 samples.

Results

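The genes described are 8 members of 3 families of actin-filament proteins: the tropomyosins Tpm1, Tpm2, Tpm3 and Tpm4, the calponins Cnn2 and Cnn3, and the transgelins Tagln and Tagln2. They were taken as a named list of 8 genes from the 27998 genes of the matrices, and all 8 were found in both. The cells were mouse iPSCs (induced pluripotent stem cells, made from differentiated cells and able to give rise to all tissues), profiled by droplet single-cell RNA sequencing. The knockout library came from cells labelled SRFΔ/Δ, with Srf deleted, and the wild-type library from cells labelled SRFf/f, with the undeleted floxed alleles, each grown in serum-containing medium. How many clones each library holds and how the deletion was made are not given in the sources used here. The series asks, by its title, about expression noise and the stability of cell state.

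Srf encodes serum response factor, which binds a short DNA element called the CArG box, often together with the myocardin-related factors MRTF-A and MRTF-B that respond to the pool of unpolymerised actin. Tropomyosins are coiled-coil dimers that lie along actin filaments and set which myosins and severing proteins can reach them. Calponins and transgelins share a calponin homology domain and bind actin filaments, and several of them are classical SRF targets in smooth muscle, where Tagln is also known as SM22 alpha.

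The element itself is shown first, since SRF is the factor deleted here. RefSeq promoter windows of 300 bases (250 before to 50 after the annotated start, build GRCm38.p6) were matched by symbol for 7 of the 8 genes, with 2 windows for Tpm3. Both strands were searched for the CArG box, whose pattern of 10 letters is its own reverse complement. An exact box stood in 1 of these 8 windows, that of Cnn2, against 1.63% of all 32851 windows. With at most 1 letter outside the pattern, 4 of the 8 windows held a match, against 21.1% of all windows. The Cnn2 sequence up to its GENCODE start (chr10:79988350-79988583, plus strand) is printed with the box in capitals, which lies 56 bases before the RefSeq start.
Cnn2: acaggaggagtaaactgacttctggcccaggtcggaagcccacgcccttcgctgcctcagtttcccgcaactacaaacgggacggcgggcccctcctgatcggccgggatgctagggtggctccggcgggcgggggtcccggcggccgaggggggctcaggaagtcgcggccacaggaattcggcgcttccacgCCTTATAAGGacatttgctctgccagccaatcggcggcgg

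The box of Cnn2 is set beside that of Actg1, the cytoplasmic gamma-actin gene that was also far lower in the knockout, 1 of the boxes of Srf itself, and the near matches of Tpm1. Each is printed with 10 bases on either side, 5′ to 3′ on the gene's strand, with the 10 matched letters in capitals. The Actg1 stretch is chr11:120348566-120348595 and the Srf stretch chr17:46556225-46556254, both on the minus strand. The Tpm1 stretches, each with 1 letter outside the pattern, are chr9:67049274-67049303 and chr9:67049415-67049444 on the minus strand. They lie 80 and 221 bases before the RefSeq start. The first of them lies inside the GENCODE bounds of Tpm1 (chr9:67022590-67049406), so it is not upstream of the GENCODE start.
Cnn2: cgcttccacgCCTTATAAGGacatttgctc
Actg1: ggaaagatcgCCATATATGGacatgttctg
Srf: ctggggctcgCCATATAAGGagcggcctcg
Tpm1, 80 bases before the start: acaagcttttCCAAAAAAGTattggctgtc
Tpm1, 221 bases before the start: gctcgggtccCCATATATAGtcatatccac
No window of Tpm2, Tpm4, Cnn3 or Tagln2 held a match at this tolerance. The near matches of Tpm3 lay 66 bases before 1 RefSeq start and 57 and 162 bases before the other, which is inside the GENCODE bounds of Tpm3. A match of letters does not show binding, and its absence says only that these letters are not in this window.

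The knockout library held 1073 cells and 22277996 unique molecular identifiers (UMIs, counts of captured RNA molecules), and the wild-type library 954 cells and 24005849 UMIs. Cells with at least 1000 genes and 1 to 10% mitochondrial UMIs were kept, 753 knockout and 902 wild-type. They were split by raw UMIs summed over Col1a2, Col3a1 and Acta2: cells with fewer than 5, here called low cells, numbered 731 and 893, and cells with 5 or more, called high cells, numbered 22 and 9. No knockout cell and 1 wild-type cell had a sum of 3 or 4, and 3 knockout cells and 1 wild-type cell had 5 to 9. Low cells had a median of 24423 UMIs in the knockout against 26656 in the wild type. Of the knockout low cells, 94 had at least 10 UMIs over Gata6, Gata4, Sox17, Pdgfra, Dab2, Cubn, Lrp2 and Amn and are called endoderm-marker cells, which left 637 others. Levels are counts per 1000000 summed UMIs of a group (CPM), with 95% exact Poisson intervals, and shares of cells or UMIs carry Clopper-Pearson intervals. With 1 library per genotype there is no replicate check, no test was possible, and all intervals cover counting error only. A gene was called different where its summed levels differed by at least 1.5-fold (0.58 on the log2 scale), among genes whose mean over the groups compared was at least 10 CPM. The levels were not divided by length, so they are compared within a gene and not between genes.

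Srf had 3 UMIs in the 731 knockout low cells against 202 in the 893 wild-type low cells, and 0 in the endoderm-marker cells. It had 14 UMIs (22.6 CPM) in the 22 knockout high cells and 3 (17.8 CPM) in the 9 wild-type high cells. Srf thus bore out the label in low cells and not in high cells, so that knockout high cells are high cells of the library labelled knockout, with no direction of the deletion drawn from them. The labelled cell type was checked against 9 pluripotency genes, all of them detected in the low cells of both libraries, with a summed level of 13031 CPM in the wild type and 9366 CPM in the knockout. The low cells also held a few cells of another kind. At least 5 UMIs over 9 fibroblast genes outside the choice of cells (Bgn, Dcn and Thy1 among them) were present in 4 knockout and 6 wild-type low cells, and at least 10 UMIs over 5 blood genes in 5 and 4. For this reason each ratio was also taken in the 642 knockout and 856 wild-type low cells with at least 5000 CPM over the 9 pluripotency genes, called pluripotency-high cells, a limit chosen after seeing the data. The libraries shared 2 cell barcodes, 1 of them among cells kept in both.

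In low cells, Cnn2 stood far apart from the other members: its level was 8.67-fold lower in the knockout. Tpm1 and Tpm2 were lower by about 1.6-fold to 1.7-fold, Tpm4 and Cnn3 were lower by less than 1.5-fold, and Tpm3 and Tagln2 were not lower. Tagln was lower in the sums, but most of its wild-type UMIs came from 5 cells, and no difference was seen in pluripotency-high cells. Of the 7 members above that minimum, 3 were at least 1.5-fold lower (Tpm1, Tpm2 and Cnn2) and none was at least 1.5-fold higher, where 2.58% of the 6554 genes compared were lower and 7.05% were higher. The median log2 ratio of those 7 members was -0.48, against 0.09 over all 6554 genes. In pluripotency-high cells 2 of the 7 were lower (Tpm2 and Cnn2) and none higher, with Tpm1 just inside the limit. Among 6430 genes, 2.55% were lower and 4.98% higher there. The knockout pluripotency-high cells still included endoderm-marker cells, and no ratio was taken without them in that group. In low and in pluripotency-high cells alike, Cnn2 was under 10 CPM in the knockout and passed the minimum only through the wild type. The minimum thus left it no call but lower, and its place in these counts is a description. The plot of levels by cell group shows all 8 genes, and the plot of ratios shows the knockout over the wild type in 3 choices of cells.

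**Figure D1:**
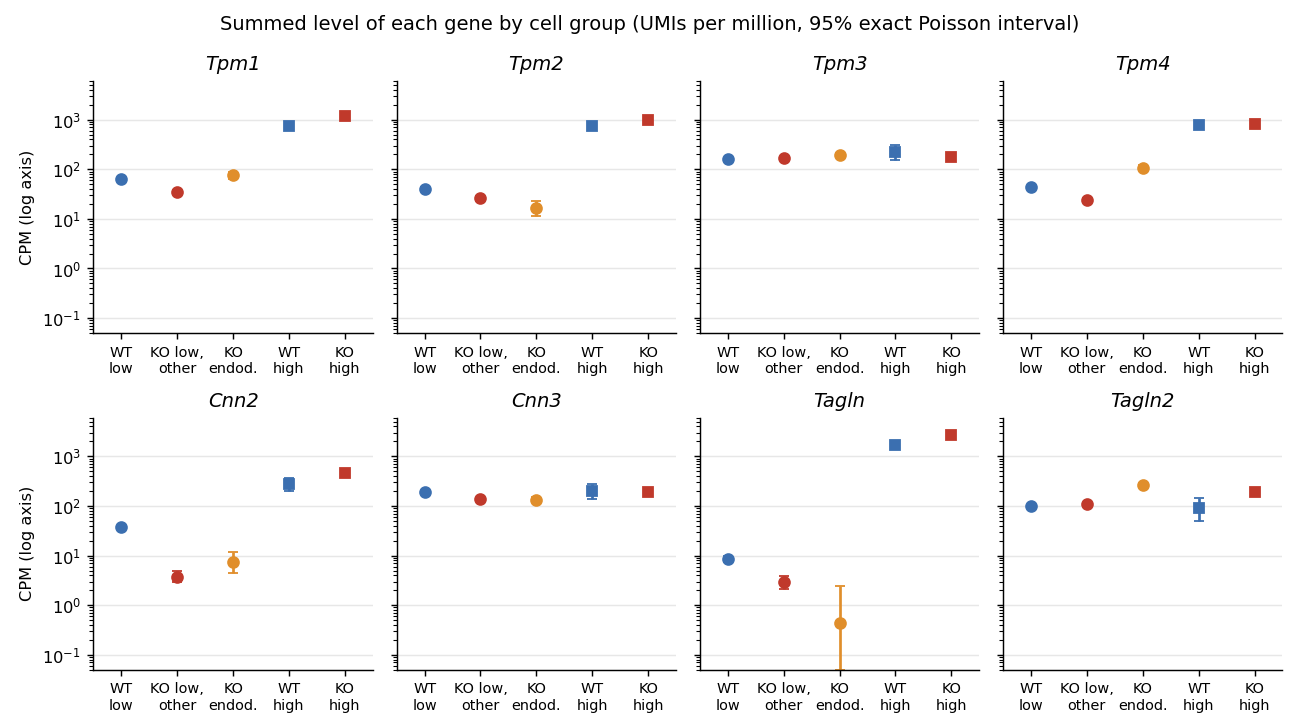
Level of each gene (CPM, log axis, points with 95% exact Poisson intervals) in wild-type low cells, other knockout low cells, endoderm-marker knockout cells, and the high cells of both libraries. Cnn2 was at 36.9 CPM in wild-type low cells and 3.76 CPM in the other knockout low cells, and Tagln was at 1718 and 2677 CPM in wild-type and knockout high cells and under 10 CPM in all low groups; its interval in endoderm-marker cells, on 1 UMI, runs below the axis.

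Cnn2 (ENSMUSG00000004665, chr10:79988584-79996062, plus strand) encodes calponin 2, the non-muscle calponin of many cell types. It had 858 UMIs in wild-type low cells, a level of 36.9 CPM (34.4 to 39.4), and 77 UMIs in knockout low cells, a level of 4.23 CPM (3.34 to 5.29). The intervals did not overlap, and the log2 ratio was -3.12 (-3.48 to -2.79). Of the 6554 genes compared, it had the 2nd lowest ratio. In pluripotency-high cells its level was 3.07 CPM in the knockout and 32.1 CPM in the wild type, a log2 ratio of -3.38 (-3.83 to -2.97). No knockout low cell had more than 3 of its UMIs, while 1 wild-type low cell had 28. The summed level was low in both kinds of knockout low cell, at 7.53 CPM in endoderm-marker cells and 3.76 CPM in the others. It was not low throughout: the 26 others that were not pluripotency-high were at 34.9 CPM, on 15 of the 77 UMIs. The 34 wild-type cells of that kind were at 166 CPM. Low cells with at least 5 fibroblast-list UMIs, which may overlap these, were at 137 CPM in the knockout (4 cells, 7 UMIs). In the wild type they were at 302 CPM (6 cells, 35 UMIs).

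Tpm1 (ENSMUSG00000032366, chr9:67022590-67049406, minus strand) encodes alpha-tropomyosin, which is made as many isoforms in muscle and non-muscle cells. Its level was 39.7 CPM (36.9 to 42.7, 723 UMIs) in knockout low cells and 62.9 CPM (59.7 to 66.2, 1463 UMIs) in wild-type low cells, a log2 ratio of -0.66 (-0.79 to -0.53). The wild-type sum leaned on few cells: 5 of the 893 cells held 246 of its UMIs (16.8%), and 1 cell held 87. In pluripotency-high cells the levels were 31.5 and 47.0 CPM, a log2 ratio of -0.57 (-0.73 to -0.42), short of the 1.5-fold limit. Without the low cells that had at least 5 fibroblast-list UMIs, also a choice made after seeing the data, it was just inside the limit as well (-0.58, where the limit is 0.585 in size). It was -0.56 with each cell weighted alike and -0.55 in cells with 0 UMIs of Col1a2, Col3a1 and Acta2, both short of the limit, and -0.86 without endoderm-marker cells. The direction was the same in each of these, and the call was not.

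Tpm2 (ENSMUSG00000028464, chr4:43514711-43523765, minus strand) encodes beta-tropomyosin. Its level was 24.6 CPM (22.4 to 27.0, 448 UMIs) in the knockout and 40.9 CPM (38.4 to 43.6, 952 UMIs) in the wild type, a log2 ratio of -0.73 (-0.90 to -0.57). In pluripotency-high cells the log2 ratio was -0.62 (-0.80 to -0.45), and without endoderm-marker cells -0.67, so that the call held in both. Its wild-type UMIs leaned less on single cells than those of Tpm1: 5 cells held 54 of them (5.67%), and 13 were the most in 1 low cell.

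Tpm4 (ENSMUSG00000031799, chr8:72134975-72153142, plus strand) encodes a tropomyosin of non-muscle cells. Over all low cells its level was 34.6 CPM in the knockout and 44.1 CPM in the wild type, a log2 ratio of -0.35 (-0.50 to -0.21) that did not reach 1.5-fold. That sum mixed 2 unlike groups of knockout cells: the 94 endoderm-marker cells, at 108 CPM, held 243 of the 629 UMIs, and the other 637 cells were at 24.2 CPM. Without the endoderm-marker cells the log2 ratio was -0.86 (-1.04 to -0.70). In pluripotency-high cells, which in the knockout still included endoderm-marker cells, it was -0.56 (-0.74 to -0.38), short of 1.5-fold. Without endoderm-marker cells, 4 of the 7 members were at least 1.5-fold lower (Tpm1, Tpm2, Tpm4 and Cnn2) and none higher. Among 6460 genes, 2.69% were lower and 4.66% higher. Cnn2, at 3.76 CPM in the knockout, again passed the minimum only through the wild type.

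Tpm3 (ENSMUSG00000027940, chr3:90072649-90100902, plus strand) encodes a tropomyosin found in slow muscle and in most non-muscle cells. Its level ranged from 159 to 219 CPM over the 5 cell groups of the plot of levels. In low cells it was at 170 CPM in the knockout and 159 CPM in the wild type, a log2 ratio of 0.09 (0.02 to 0.16), and the sign turned with TMM scaling (-0.01) and with median-of-ratios scaling (-0.03). The gene set also lists a related copy, Tpm3-rs7, and how reads shared between the copies were assigned is not given in the sources used here. Cnn3 (ENSMUSG00000053931, chr3:121426497-121458207, plus strand) encodes calponin 3, the acidic calponin. Its level was 139 CPM in the knockout and 194 CPM in the wild type, a log2 ratio of -0.48 (-0.55 to -0.41), with intervals that did not overlap and a size under 1.5-fold. Both scalings that move the median of all genes to near 0 put it past that limit, at -0.59 and -0.60.

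Tagln2 (ENSMUSG00000026547, chr1:172500047-172507380, plus strand) encodes transgelin 2, the transgelin of non-muscle cells. It was the only member with a higher level in the knockout whose sign held under each scaling, at 129 CPM against 102 CPM, a log2 ratio of 0.35 (0.26 to 0.43) that was under 1.5-fold. Without endoderm-marker cells the ratio was 0.12 (0.02 to 0.20). When cells with a raised share of chromosome 8 were left out as well, it was -0.07 (-0.19 to 0.06), and the interval included no difference.

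Tagln (ENSMUSG00000032085, chr9:45929619-45936058, minus strand) encodes transgelin, a marker of smooth muscle and myofibroblasts. Its level in low cells was 2.58 CPM (47 UMIs) in the knockout and 8.64 CPM (201 UMIs) in the wild type, below the filter of 10 CPM, and the log2 ratio of the sums was -1.73 (-2.23 to -1.28). Of those 201 wild-type UMIs, 1 cell held 80 and 5 cells held 150 (74.6%), and only 46 of 893 wild-type low cells had any. The 34 wild-type low cells that were neither pluripotency-high nor rich in endoderm markers held 3.60% of the UMIs of all genes and 80.6% of those of Tagln. Pluripotency-high cells had 30 Tagln UMIs in the knockout against 38 in the wild type, levels of 1.84 and 1.70 CPM, with a log2 ratio of 0.12 (-0.63 to 0.84). The same 34 cells held 27.2% of the wild-type Tpm1 UMIs, 20.5% of those of Tpm4, 16.2% of those of Cnn2, 12.8% of those of Tpm2 and 5.56 to 5.97% of those of Tpm3, Cnn3 and Tagln2.

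**Figure D2:**
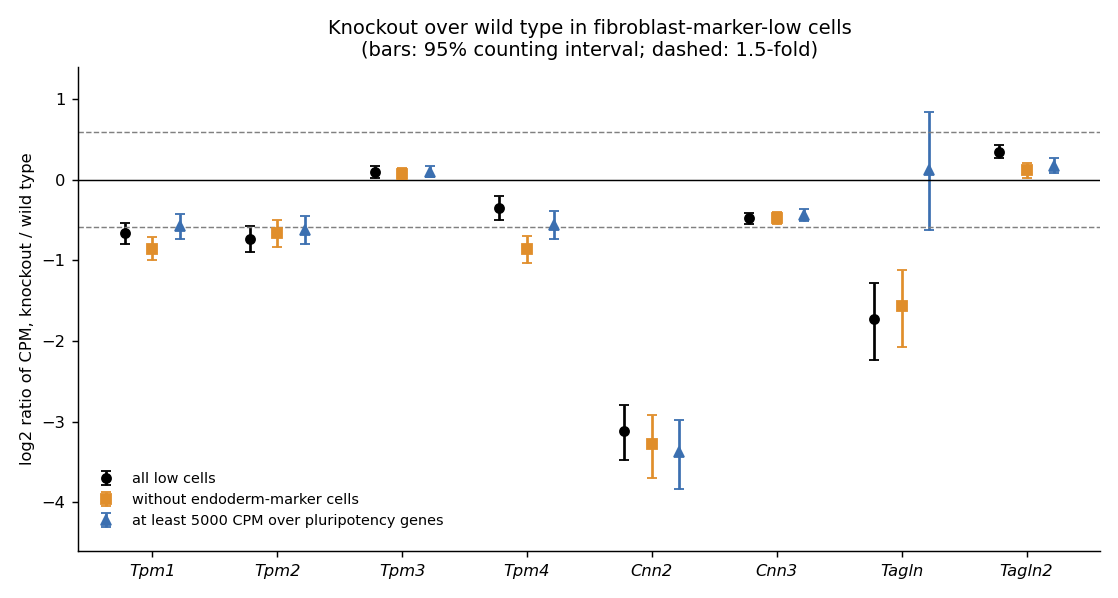
Log2 ratio of the knockout over the wild type for each gene (points, with 95% counting intervals) in all low cells, without endoderm-marker cells, and in cells with at least 5000 CPM over 9 pluripotency genes; dashed lines mark 1.5-fold. Cnn2 lay below -3 in all 3 choices of cells, while Tagln went from -1.73 to 0.12 in pluripotency-high cells.

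The other genes of these families were near the limit of detection in low cells. Cnn1, the smooth muscle calponin, had 24 UMIs in the knockout against 49 in the wild type, levels of 1.32 and 2.11 CPM. Tagln3, a transgelin of neurons, had 31 and 57 UMIs, levels of 1.70 and 2.45 CPM. Both intervals of the ratio included no difference.

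Of a list of 33 other genes of the actin filament, 22 passed the filter in low cells, with a median log2 ratio of -0.25. Of these, 4 were at least 1.5-fold lower in the knockout and none was higher, where 2.58% of all 6554 genes were lower and 7.05% higher. The 4 were Actg1 (-2.08, from 1816 to 431 CPM) and Actb (-1.82, from 1069 to 303 CPM), which encode the cytoplasmic actins, Wdr1 (-1.11), a cofactor of filament disassembly by cofilin, and Myl12a (-0.65), a myosin regulatory light chain. The highest ratios were those of Actn4 (0.33), an actin crosslinker, Tmod3 (0.20), which caps filament ends by way of tropomyosin, and Fhl1 (0.17), a LIM-domain protein. Cnn2 thus had a lower ratio than any of these 22 genes, and Tpm1 and Tpm2 lay between the values of Myl12a and Wdr1. An exact CArG box stood in the promoter window of 8 of the 28 listed genes that had a window. These were Actg1, Acta1, Actc1, Myl9, Myl6, Vcl, Fhl2 and Fhl1, the last among the 3 highest ratios over all low cells. That place of Fhl1 did not hold in other choices of cells. Without endoderm-marker cells 5 of 22 listed genes were called lower, and in pluripotency-high cells 5 of 20, with Fhl1 among them in both. In endoderm-marker cells Fhl1 was called higher than in the other knockout low cells. Of the 4 genes that were lower over all low cells, Wdr1 and Myl12a had no exact box in their windows, and Actb had no window. The cofactor genes Mkl1 (MRTF-A) and Mkl2 (MRTF-B) were at 4.01 and 3.30 CPM in knockout low cells and at 4.90 and 3.52 CPM in wild-type low cells, with intervals of the levels that overlapped. Myocd, the cofactor of smooth and heart muscle, had 0 UMIs in both, which allows up to 0.165 CPM in the knockout and 0.129 CPM in the wild type.

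Shares of cells with a UMI were taken after each cell was thinned to 10562 UMIs, which left out 70 knockout and 93 wild-type low cells that were shallower and kept 661 and 800. Cnn2 was seen in 4.39% (2.96 to 6.24) of knockout and 25.2% (22.3 to 28.4) of wild-type cells. Before thinning the shares were 8.89% and 47.9%. Tpm1 was seen in 29.3% and 36.9%, Tpm2 in 132 of 661 and 247 of 800 cells, and Cnn3 in 73.5% and 82.6%, each with intervals apart and the knockout lower. Tagln2 was seen in 65.7% of knockout and 58.4% of wild-type cells, the only share that was higher in the knockout with intervals apart (61.9 to 69.3% and 54.9 to 61.8%). Without endoderm-marker cells it was 61.6% (57.4 to 65.6), which overlapped the wild type, and the intervals overlapped without thinning too. Tpm3 was seen in 81.5% and 78.5%, and Tpm4 in 26.5% and 29.9%, with intervals that overlapped. Without endoderm-marker cells the Tpm4 share in the knockout was 20.5% (17.3 to 24.1) and lay apart from the wild type (26.7 to 33.2). Without thinning, Tpm4 was apart and Cnn3 was not. Tagln was seen in 2.42% and 2.75% of cells, near the shares of the fibroblast genes Bgn (1.06% and 1.12%) and Col1a1 (1.06% and 1.75%), so it was not read as expression in these cells. Before thinning, the shares of the other members were 51.3% and 62.9% for Tpm1, 37.9% and 56.2% for Tpm2, 95.8% and 93.8% for Tpm3, 44.6% and 55.0% for Tpm4, 90.3% and 93.4% for Cnn3, 4.65% and 5.15% for Tagln, and 85.1% and 80.4% for Tagln2. The share of Cnn2 in the knockout was also above those of Bgn and Col1a1, with an interval that did not overlap theirs.

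**Figure D3:**
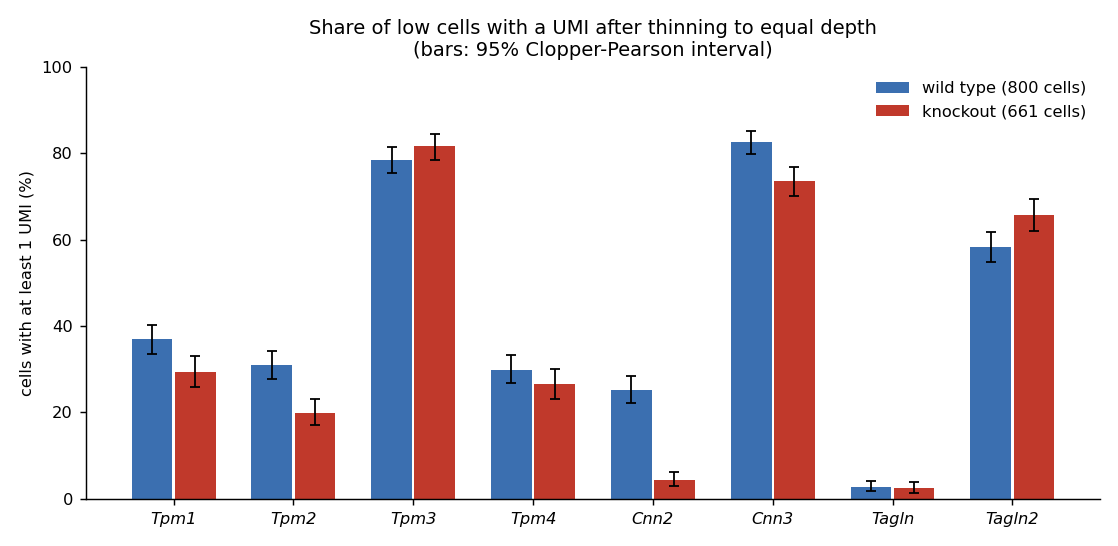
Share of low cells (percent) with at least 1 UMI of each gene after thinning to equal depth, wild type and knockout, with 95% Clopper-Pearson intervals. Cnn2 was seen in 25.2% of wild-type and 4.39% of knockout cells, the widest gap in relative terms of the 8 genes, and the Tagln bars are at 2.75% and 2.42%.

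The endoderm-marker cells of the knockout carried a different set of these genes. Their identity was checked with 10 primitive endoderm genes outside the choice of cells (such as Sox7, Lama1 and Col4a1), all detected, with a summed level of 4699 CPM against 172 CPM in the other knockout low cells. The 9 pluripotency genes were at 4660 CPM against 10033 CPM. Of 6 members that passed the filter, 3 were at least 1.5-fold higher in endoderm-marker cells (Tpm4, Tagln2 and Tpm1) and 1 was lower (Tpm2), where 26.5% of 6968 genes were higher and 11.0% lower.

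Tpm4 showed the widest difference, at 108 CPM (94.6 to 122) in endoderm-marker cells and 24.2 CPM (21.8 to 26.7) in the other knockout low cells, 4.45-fold, a log2 ratio of 2.15 (1.92 to 2.39). After thinning it was seen in 63.7% of endoderm-marker cells and 20.5% of the others. Wild-type low cells lay between them, at 44.1 CPM. Tagln2 was at 263 CPM against 110 CPM, a log2 ratio of 1.26 (1.12 to 1.39), and at 102 CPM in wild-type low cells. Tpm1 was at 75.3 CPM against 34.7 CPM, a log2 ratio of 1.12 (0.86 to 1.37), and at 62.9 CPM in wild-type low cells.

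Tpm2 went the other way, at 16.4 CPM (37 UMIs) against 25.8 CPM, a log2 ratio of -0.64 (-1.18 to -0.17), so that the tropomyosin genes did not move as a group. This call ended when the limit was raised to 20 endoderm UMIs. Tpm3 (0.19) and Cnn3 (-0.06) were within 1.5-fold. Cnn2 was at 7.53 CPM against 3.76 CPM on 17 and 60 UMIs, below the filter. Tagln had 1 UMI in the 94 endoderm-marker cells, and Cnn1 and Tagln3 had 0, which allows up to 1.33 CPM. The fibroblast list was at 7.53 CPM in endoderm-marker cells, with Col1a1, Lum, Postn and Col6a1 at 0, and at 24.3 CPM in the others. The blood list was at 172 CPM in endoderm-marker cells and 50.6 CPM in the others, with 2 cells of at least 10 blood-list UMIs among the 94, and the same 4 genes were called without the cells rich in that list.

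The choice of endoderm-marker cells has a threshold, and values just inside and outside it are given as a description. Tpm4 was at 45.0 CPM (24.6 to 75.4) in the 15 cells with 5 to 9 endoderm UMIs, 66.5 CPM (45.5 to 93.9) in the 22 cells with 10 to 19, and 119 CPM (103 to 136) in the 72 cells with 20 or more. Tagln2 was at 154 CPM (114 to 204), 241 CPM (199 to 289) and 269 CPM (246 to 294) in the same ranges. The intervals on either side of the threshold overlapped for both genes. Tpm1 was at 67.4, 52.0 and 81.6 CPM, and Cnn2 at 16.1, 8.32 and 7.32 CPM on 5, 4 and 13 UMIs.

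Tpm4 lies on chromosome 8, and the libraries differed in how many cells had a raised share of UMIs from that chromosome. A share over 1.2 times the wild-type median was found in 368 of 731 knockout low cells (50.3%), 88 of 893 wild-type low cells (9.85%) and 61 of 94 endoderm-marker cells (64.9%). Tpm4 was not left out of that share, so its own counts entered the classes in which it is compared. In the other knockout low cells Tpm4 was at 16.9 CPM where the share was usual and 31.6 CPM where it was raised, a log2 difference of 0.91 (0.60 to 1.22). In wild-type low cells it was at 43.2 and 51.8 CPM, a log2 difference of 0.26 (-0.03 to 0.54). Among cells of usual share, the log2 ratio of the other knockout low cells over the wild type was -1.35 (-1.63 to -1.10) for Tpm4, against -0.86 over both kinds of cell. In endoderm-marker cells Tpm4 was at 78.3 CPM where the share was usual and 122 CPM where it was raised. Its difference between endoderm-marker and other knockout cells was present within each class, with log2 ratios of 2.22 (1.75 to 2.67) and 1.95 (1.67 to 2.23).

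Tagln2, on chromosome 1, also differed between these classes in low cells. It was at 98.1 and 132 CPM in wild-type cells of usual and raised share, and at 93.8 and 126 CPM in the other knockout cells, so that within a class the genotypes differed by -0.07 in both on the log2 scale, with intervals that included no difference. In endoderm-marker cells the order was the reverse, at 325 CPM where the share was usual and 232 CPM where it was raised. For Tpm1 the knockout over wild-type log2 ratio without endoderm-marker cells was -0.96 (-1.16 to -0.77) in cells of usual share and -0.38 (-0.70 to -0.05) in cells of raised share. For Tpm2 the values were -0.87 (-1.11 to -0.64) and -0.32 (-0.68 to 0.07). For Cnn2 they were -3.24 and -2.68, lower in the knockout in both classes.

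**Figure D4:**
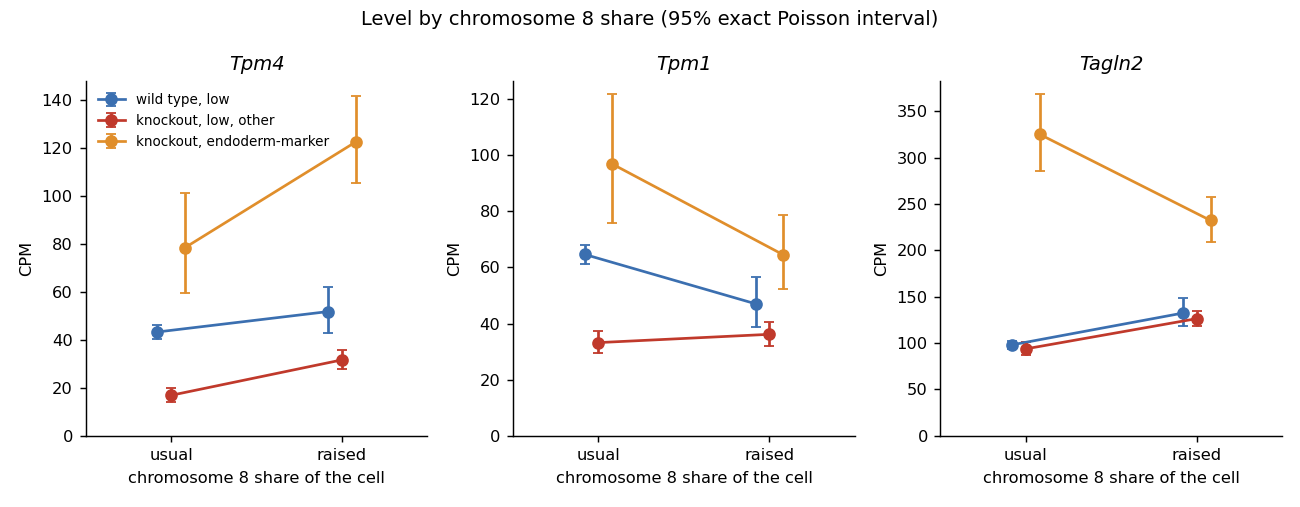
Level (CPM, linear axis from 0, with 95% exact Poisson intervals) of Tpm4, Tpm1 and Tagln2 in cells with a usual or a raised share of UMIs from chromosome 8, for wild-type low, other knockout low and endoderm-marker knockout cells. Tpm4 went from 16.9 to 31.6 CPM in the other knockout low cells, and the endoderm-marker cells lay above both other groups for all 3 genes in each class.

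In the knockout, high cells held most UMIs of Tpm2, Cnn2 and Tagln, and in the wild type they held most UMIs of Tagln alone. For Tpm1 in the knockout the share was 50.6% (48.0 to 53.2), and 1 cell held 166 of the 741 UMIs in high cells. They were 2.92% of the knockout cells that were kept and 0.998% of the wild-type cells, with 3.30% and 0.720% of the UMIs of all genes. Their sums over Col1a2, Col3a1 and Acta2 ran from 7 to 981 (median 54.5) in the knockout and from 5 to 57 (median 40) in the wild type. The fibroblast list was at 3468 CPM in the knockout and 3460 CPM in the wild-type high cells, with Lum at 0 in both, against 22.2 and 17.1 CPM in low cells. The pluripotency list was at 284 and 3205 CPM. In the wild type this came largely from 1 cell of 18261 CPM, which passed on 5 UMIs of Acta2 and had 0 UMIs of the fibroblast list. The smooth muscle list was at 1357 and 421 CPM, with all 5 genes detected, and the endothelial list was at 0. The primitive endoderm list, which includes collagen, laminin and Sparc genes, was at 2308 and 1736 CPM, with Sox7, Foxa2 and Hnf4a at 0 in both. The blood list was at 247 CPM in knockout high cells, with 1 cell of at least 10 of its UMIs, and at 11.8 CPM in wild-type high cells, and its part in these levels was not tested.

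In both libraries 5 of the 8 members were at least 1.5-fold higher in high than in low cells: Tpm1, Tpm2, Tpm4, Cnn2 and Tagln. None was 1.5-fold lower. Tagln in both libraries and Cnn2 in the knockout were under 10 CPM in low cells and passed the minimum only through the high cells, so the minimum left them no other call, and their counts are descriptions. Among all genes, 33.3% of 7253 were higher and 38.8% lower in the knockout, and 39.8% of 7093 were higher and 30.8% lower in the wild type. Tpm3, Cnn3 and Tagln2 were within 1.5-fold in both libraries. With high cells limited to those of at least 20 marker UMIs, Cnn3 and Tagln2 were called higher in the knockout as well, and with each cell weighted alike Tpm3 was called higher in the wild type. The high cells were chosen partly by Acta2, smooth muscle alpha-actin, which is itself an SRF target.

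Tagln had the widest range of the 8 genes. In high cells it was at 2677 CPM (1661 UMIs) in the knockout against 1718 CPM (290 UMIs) in the wild type, log2 ratios over low cells of 10.00 and 7.64. Its level per cell ran from 0 to 8002 CPM, with a median of 1975, over the 22 knockout cells, and from 187 to 8907 CPM, with a median of 1241, over the 9 wild-type cells. Of all Tagln UMIs in cells that were kept, 97.2% (96.4 to 98.0) lay in high cells in the knockout, against 59.1% (54.6 to 63.4) in the wild type. In the wild type, 162 of the 201 Tagln UMIs of low cells came from the 34 low cells described above. The wild-type share and the log2 ratio over low cells both rest on those cells. Cnn2 was at 458 CPM in high cells of the knockout and 273 CPM in those of the wild type, and 78.7% of its knockout UMIs but 5.09% of its wild-type UMIs lay there. Tpm1 was at 1194 and 747 CPM, Tpm2 at 999 and 729 CPM, and Tpm4 at 807 and 770 CPM. For these 3 genes 44.3 to 58.1% of knockout UMIs and 7.93 to 11.4% of wild-type UMIs lay in high cells. Tpm3, Cnn3 and Tagln2 had 3.44 to 4.82% there in the knockout and 0.631 to 0.990% in the wild type, close to the high cells' part of all UMIs.

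**Figure D5:**
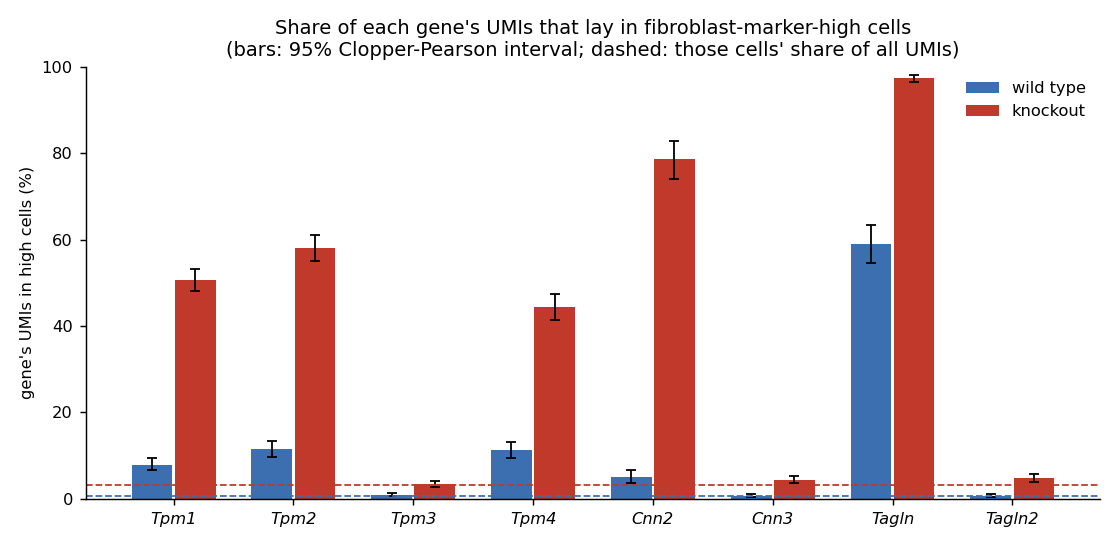
Percent of each gene's UMIs that lay in high cells, by library, with 95% Clopper-Pearson intervals; dashed lines give the percent of all UMIs in those cells (3.30% in the knockout, 0.720% in the wild type). Tagln stands at 97.2% in the knockout against 59.1% in the wild type, and Cnn2 at 78.7% against 5.09%. In the wild type, 34 low cells held 80.6% of the Tagln UMIs of low cells.

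Between the libraries, whose high cells both carried Srf, 4 of the 8 members were at least 1.5-fold higher in knockout than in wild-type high cells (Tpm1, Cnn2, Tagln and Tagln2) and none was lower, where 16.1% of 6819 genes were higher and 31.3% lower. The log2 ratios were 0.67 (0.40 to 0.96) for Tpm1, 0.74 (0.29 to 1.23) for Cnn2, 0.64 (0.46 to 0.83) for Tagln and 1.07 (0.33 to 1.99) for Tagln2, the last on 15 wild-type UMIs. These calls turned on few cells. Without the wild-type cell of 18261 CPM over pluripotency genes, Tagln2 alone was called, and the ratios of Tpm1, Cnn2 and Tagln were 0.44, 0.49 and 0.41. Without the cell of most Col1a2, Col3a1 and Acta2 UMIs in each library, which in the knockout had 109504 UMIs and held 528 of the 1661 Tagln UMIs, Tpm1 and Tagln2 were called, and Cnn2 was at 0.45. Cnn2 was thus not lower in the knockout in any of these 3 choices of high cells, and the difference from its ratio in low cells was not tested.

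Cell-to-cell variation could be compared only for members that averaged 0.5 or more thinned UMIs per low cell in both libraries, which were Tpm3, Cnn3 and Tagln2. For Cnn3 the squared coefficient of variation (CV2, the variance over the squared mean) was 0.659 in the wild type against 0.799 in the knockout, with a log2 ratio of 0.28 that became -0.12 without thinning, and its Fano factor (variance over mean) was 1.36 against 1.17. For Tpm3 the CV2 was 0.768 against 0.677, a log2 ratio of -0.18. For Tagln2 the log2 ratio of CV2 was 0.09, which became -0.12 without endoderm-marker cells, and that of its Fano factor was 0.45. Over the 2205 genes that passed, the median log2 ratio was 0.02 and 54.0% of genes had a higher CV2 in the knockout, so the 3 members did not share a direction.

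For the sparser members the Fano factor is given as a value only. For Tpm1 it was 1.80 in knockout and 5.72 in wild-type low cells, and 1.35 and 1.19 in pluripotency-high cells. For Tagln it was 1.61 and 13.4 in low cells, and 0.978 and 0.982 in pluripotency-high cells. The high wild-type values thus went with the few low cells that carried many UMIs of these genes.

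Across cells of 1 library the members hardly varied together. Over the 28 pairs of members, Pearson's r on log2(thinned count + 1) had a median of 0.10 in 800 wild-type low cells and 0.03 in 661 knockout low cells. The highest values were 0.35 for Tpm1 with Tagln in the wild type and 0.19 for Tpm1 with Tpm4 in the knockout. In pluripotency-high cells the highest were 0.10 in each library, for Tpm4 with Cnn2 among 770 wild-type cells and for Tpm2 with Tpm3 among 581 knockout cells. The cells share a library, and most counts are 0 or 1, so these values are descriptions.

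The genes most like each member in pattern were found by the Euclidean distance between centred log2(CPM + 1) levels over 5 cell groups (the 5 groups of the plot of levels), among 9480 genes with at least 10 CPM in at least 1 group. For Cnn2 the nearest was Egr1, an SRF-dependent early growth response gene (distance 1.19), which was at 41.1 CPM in wild-type low cells, 2.95 CPM in other knockout low cells, 3.99 CPM in endoderm-marker cells, and 397 and 255 CPM in wild-type and knockout high cells. For Tagln the nearest were the collagen gene Col1a1 (1.24), the smooth muscle light chain gene Myl9 (1.30) and Bgn (1.80). For Tpm1 they were Arhgdib (0.45) and Ahnak (0.54), for Tpm2 Gng8 (0.57) and Ahnak2 (0.61), and for Tpm4 Snhg18 (0.52). For Tpm3, Cnn3 and Tagln2 the nearest were Rraga (0.09), Bnip3l (0.07) and Slc15a4 (0.25). With 5 groups from 2 libraries, likeness in this measure is a description of these cells.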

How the data were processed

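Single-cell counts of 1 knockout and 1 wild-type library were analysed. The deposited values are raw counts of UMIs per gene and cell, whole numbers in integer matrices per the file headers. The submitters' processing notes name Cell Ranger 2.0.0, Seurat 3.1.1 and the mm10 build. The strand setting and the rule for reads of overlapping genes are not given in the sources used here. Counts were summed over the cells of a group and scaled to CPM. Ratios had 0.5 counts added to each sum, with 95% intervals conditional on the total. These were checked on simulated Poisson counts, which lack the extra variation between cells of these data, so the check does not cover it. A count of 0 allows up to 3 counts of the total. Thinning drew UMIs without replacement, to the 10th percentile of the totals of low cells. No doublet caller was run, and cells of over 2 times the median UMIs were left out in an alternative. Chromosome shares used autosomal genes of at most 500 CPM and GENCODE M21 (GRCm38), which matched 98.7% of genes. Normalization with edgeR 4.0.16 and DESeq2 1.42.0 was used only for scaling. Other tools were Python 3.11.15, numpy 2.4.6, scipy 1.17.1, pandas 2.3.3 and R 4.3.3. The members, gene lists and limits were chosen with earlier results of these data known. Named genes were the members, Cnn1, Tagln3, the 4 lowest and 3 highest ratios of a list of 33 actin-filament genes, 4 SRF-related factors, and up to 3 nearest genes in pattern for each member. The 246 knockout cells under 1% mitochondrial UMIs were outside the choice of cells.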

Additional observations from a re-analysis of the deposited data

How the results depend on the processing

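No paired analysis was possible because the 2 groups hold 1 library each. The median log2 ratio of the members in low cells, -0.48, became -0.59 with TMM and -0.60 with median-of-ratios scaling, which shift the median of all genes by -0.11 and -0.12, and -0.37 with 0 to 10% mitochondrial UMIs. It was -0.67 without endoderm-marker cells, -0.74 with a usual chromosome 8 share and -0.87 with both (added after seeing the data), -0.19 with a mean of at least 50 CPM, and 0.24, reversed, with no fibroblast-marker limit. Without that limit Tpm1 (0.20), Tpm2 (0.31), Tpm4 (0.28) and Tagln (2.11) also turned, 1 member was lower (Cnn2) and 1 higher (Tagln). Tagln turned to 0.12 in pluripotency-high cells, an alternative added after seeing the data. The count of 3 lower members was 1 with a mean of at least 50 CPM (Tpm1) and 1 at 2-fold (Cnn2). Over all genes, 169 were lower and 462 higher, against 278 and 300 with TMM scaling and 290 and 290 with median-of-ratios scaling. At 2-fold 37 were lower and 105 higher, and with a mean of at least 1 CPM 583 and 1400. In high cells the 4 higher members became 1 with each cell weighted alike, 1 at 2-fold, 1 without the cell of high pluripotency level and 2 without the cell of most marker UMIs in each library, the last 2 added after seeing the data. The 1 lower member in endoderm-marker cells became 0 at 20 endoderm UMIs and 0 at 2-fold. The 1 higher share became 0 without thinning and 0 at 2 UMIs. Without thinning the log2 CV2 ratio was -0.12 for Cnn3 and 0.22 for Tagln2, and without endoderm-marker cells -0.12 for Tagln2. The causes of these shifts were not tested. Depth limits Tagln, Cnn1 and Tagln3 in low cells and every value in the 9 wild-type high cells.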

Other observations

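The knockout library also held 244 cells with at least 1000 genes, under 1% mitochondrial UMIs and fewer than 5 UMIs over Col1a2, Col3a1 and Acta2, outside the cells described above and shallow, with a median of 8632 UMIs. Cnn2 was at 3.52 CPM (10 UMIs) in them and Tagln at 2.11 CPM (6 UMIs). Tpm1 was at 31.3 CPM, Tpm2 at 41.5 CPM and Tpm4 at 40.1 CPM. Tpm3 was at 293 CPM, Cnn3 at 220 CPM and Tagln2 at 222 CPM.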
